A study of Mus musculus with 12 samples.

Results

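RIKEN cDNA genes are mouse genes that still carried, when the array used here was designed, the provisional name of the cDNA clone by which they were first known. All gene names of the scanner files that end in Rik were taken, without use of any measured value. They came to 1799 gene names on 2229 array sequences and 2409 spots, of 36406 gene names and 55681 array sequences that were not controls. In RefSeq's current gene table, 825 of the 1799 keep the Rik name as their symbol, 787 have since been given another symbol, 4 match several genes and 183 match none. The name is therefore a label of origin and not of one function.

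Total RNA of mouse embryonic stem (ES) cells was hybridised to 12 one-colour (Cy3) arrays, 4 for each of 3 groups. The groups were wild-type cells (WT), cells with a genetic knockout of Id1 (Id1KO), and the same knockout cells with Zrf1 stably depleted (Id1KO_Zrf1KD). The Id1 protein lacks a DNA-binding region and keeps partner factors of the helix-loop-helix type off DNA. Zrf1, a J-domain protein of ribosomes and chromatin, is listed on the array under its gene symbol Dnajc2. All groups grew in GMEM with serum and leukaemia inhibitory factor, and the series' design text calls the 4 samples of each group independent and biological. The knockdown used lentiviral (pLKO) hairpins against Zrf1 with puromycin selection in Id1KO cells. No sample with a control hairpin and no WT sample with the Zrf1 hairpin was analysed here, so the hairpin, the infection and the selection cannot be told apart. The labels name no separate lines within a genotype, so the spread within a group is read as that of cultures of 1 line.

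RIKEN's mouse project sequenced full-length cDNA clones from libraries of many tissues and stages, and the consortium called FANTOM annotated them. The first characters of a clone name give its library, so that a name records the tissue in which the clone was found. Many clones proved to be protein-coding genes that were later renamed after a function or family. Others are long non-coding RNAs, which are transcribed, often spliced and polyadenylated, and are not translated into a known protein. Kinds well known in ES cells are the host genes of small nucleolar RNAs (snoRNAs), whose introns release RNAs that guide the modification of ribosomal RNA, and the non-coding genes near the X-inactivation centre. Labelling here was primed with oligo-dT, so RNAs without a poly(A) tail are poorly measured.

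The array measured each gene through stretches of 60 bases, and 13 of them are printed. Results on non-coding members turn on them, except for 1700091H14Rik, which is not described further. All 13 genes are long non-coding RNAs in RefSeq's table, and the sequences are those of the scanner files, 5′ to 3′. Capitals mark AATAAA, the commonest polyadenylation hexamer, where it occurs. The first 3 belong to snoRNA host genes.
Zfas1 (1500012F01Rik): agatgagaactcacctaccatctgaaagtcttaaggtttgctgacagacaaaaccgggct
Snhg16 (1810032O08Rik): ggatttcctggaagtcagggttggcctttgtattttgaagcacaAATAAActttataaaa
Snhg17 (9430008C03Rik): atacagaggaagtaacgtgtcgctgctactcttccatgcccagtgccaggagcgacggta
Dancr (2700023E23Rik): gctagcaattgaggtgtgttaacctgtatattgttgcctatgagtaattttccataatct
2410006H16Rik: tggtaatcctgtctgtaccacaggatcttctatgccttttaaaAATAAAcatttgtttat
Ftx (B230206F22Rik): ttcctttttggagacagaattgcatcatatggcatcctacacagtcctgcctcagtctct
Firre (6720401G13Rik): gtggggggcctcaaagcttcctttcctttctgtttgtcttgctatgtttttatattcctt
Lockd (1190002F15Rik): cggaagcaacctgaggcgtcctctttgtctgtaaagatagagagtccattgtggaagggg
Platr5 (2410088K16Rik): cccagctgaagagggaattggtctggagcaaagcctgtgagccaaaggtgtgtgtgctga
1700091H14Rik: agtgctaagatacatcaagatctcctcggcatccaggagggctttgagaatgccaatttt
5830408C22Rik: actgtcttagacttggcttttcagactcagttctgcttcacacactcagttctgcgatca
4921525O09Rik: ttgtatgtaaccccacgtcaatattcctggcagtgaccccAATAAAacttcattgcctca
B130046B21Rik: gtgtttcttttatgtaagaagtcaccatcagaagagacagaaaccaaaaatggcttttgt

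In build mm9, the build of the scanner files, the Zfas1 sequence (1500012F01Rik) lies at chr2:166889193-166890683 on the plus strand, a span longer than its 60 bases, so it crosses an intron. That of Ftx (B230206F22Rik) lies at chrX:100802990-100803049 and that of Firre (6720401G13Rik) at chrX:47923255-47923314, both on the minus strand. Dancr (2700023E23Rik) was measured at chr5:74490275-74490334 and Lockd (1190002F15Rik) at chr6:134901431-134901490, both on the plus strand. AATAAA, searched for on the strand as listed, occurred in 3 of the 13 sequences. Over all members tested it occurred in 152 of 1004 sequences (15.1%), and over all genes tested in 13.8%. The median GC content was 41.7% for the members' sequences and 43.3% for those of all genes tested.

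Per array, the share of spots well above background was 54.8% to 59.3%, and no spot was saturated. The processed signal had its 75th percentile at 440.7 to 550.2 units on WT arrays and 393.3 to 491.8 on Id1KO arrays. After the knockdown the 75th percentile was highest, at 554.0 to 596.5, and its part in the fold changes was not tested. Levels below are log2 of the processed signal relative to that percentile of the same array, so a level of 0 equals it, and levels of different genes are not compared. Across the tested members, the lowest correlation between arrays of 1 group was 0.987, and arrays of different groups correlated at 0.941 to 0.951. Dnajc2 (Zrf1) had a level of 2.0 ± 0.12 (SD, n = 4) on the WT arrays, 1.89 ± 0.11 on those of Id1KO and -0.27 ± 0.08 after the knockdown, 4.47-fold lower than in Id1KO (limma, Benjamini-Hochberg adjusted p = 9.7e-10). Id1 itself was 0.86 ± 0.20 on the WT arrays and 1.23 ± 0.31 on the arrays labelled Id1KO (adjusted p = 0.052), and whether its probe lies in the deleted part of the gene is not known here, so it checks nothing about the label. All 8 ES cell markers examined were well above background on every array. Their linear levels summed to 1020 to 1170 on WT arrays, 1110 to 1230 on Id1KO arrays and 910 to 927 after the knockdown. The mean levels of Nanog (7.55 in WT and 6.54 in Id1KO), Zfp42 (7.28 and 6.26) and Esrrb (6.44 and 5.7) were lower in Id1KO. Those of Pou5f1 and Sox2 were also lower, and those of Dppa5a, Utf1 and Tdgf1 higher. Dppa5a, with means of 9.03 in WT, 9.53 in Id1KO and 8.87 after the knockdown, is the largest part of the sum. After the knockdown, Nanog (6.91), Zfp42 (6.54), Esrrb (6.35) and Utf1 (5.66) had higher means than in Id1KO. Pou5f1, Sox2, Dppa5a and Tdgf1 had lower ones.

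Markers of other cell types moved with the groups, as sums of linear levels relative to the 75th percentile. For the 9 fibroblast markers the sum was 19.6 to 21.5 on WT arrays, 10.7 to 11.7 on Id1KO arrays and 56.5 to 60.4 after the knockdown. Thy1 and Col1a2 make up most of it. Pdgfrb had a lower mean level after the knockdown (-0.91) than in WT (-0.53), and the rest of the list a higher one. Col3a1 (-2.53 in WT and -2.54 in Id1KO) and Lum (-6.64 in both) hardly differed between WT and Id1KO. The 7 parietal endoderm markers summed to 216 to 229, 119 to 126 and 383 to 397. Sparc makes up most of that sum. Sox7 (mean level -4.3 in WT and -2.98 in Id1KO) and Gata6 (-1.17 and -1.05) were higher in Id1KO, and the rest of this list lower. Of 6 markers of 2-cell-like cells, 5 were measured and summed to 5.34 to 5.87, 117 to 127 and 188 to 197. The 4 measured trophoblast markers (Elf5 was not kept) summed to 21.3 to 23.6, 18.1 to 19.4 and 39.9 to 40.7, and the 4 neural markers to 6.91 to 7.44, 3.68 to 3.96 and 5.36 to 5.85. Krt8 and Krt18 make up most of the trophoblast sum. Nes and Tubb3 make up most of the neural sum, and Pax6 had its highest mean level in Id1KO (-1.99, against -4.51 in WT and -3.39 after the knockdown). Their part in the results on RIKEN genes was not tested. In bulk RNA, fewer cells of a type and less RNA per cell cannot be told apart.

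Of the 1799 members, 1004 (55.8%) had a sequence well above background on the 4 arrays of a group and could be tested, against 62.4% of the other gene names. The other 795 were not well above background by this rule and are not described further. Among the 1004, 927 were well above background on all 4 WT arrays, 917 on all 4 Id1KO arrays and 910 on all 4 Id1KO_Zrf1KD arrays. Of the 1799, 1435 had 1 array sequence, 307 had 2 and 57 had 3 or more, and the brightest one kept stood for the gene. A member kept through 1 group alone had to be high in it, so its bounds and p-values against the other groups are a description.

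Detection differed between kinds of clone library, as read from the library code in the gene name. The difference was not tested, nor separated from the kind of record described below. Of the 36 members named after ES cell libraries, 33 (91.7%) were tested, whereas 237 of 617 members named after adult testis libraries were (38.4%). Between them lay embryo (egg and blastocyst included) or neonate libraries with 312 of 485 (64.3%), other tissues and cells, cell lines and tumours included, with 215 of 339 (63.4%) and the adult nervous system with 80 of 145 (55.2%). For a further 177 members the code could not be assigned, and 127 of them (71.8%) were tested.

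**Figure D1:**
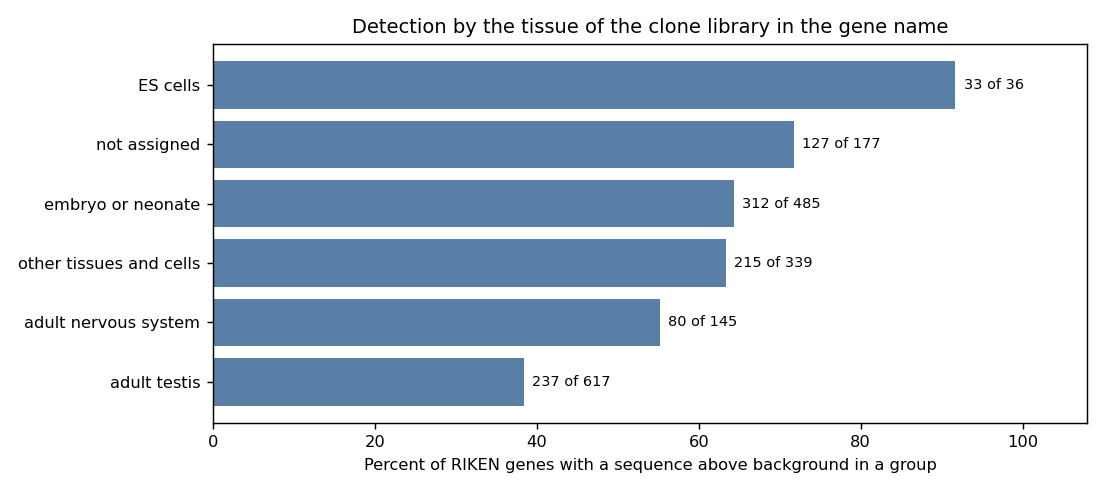
Share of RIKEN genes that could be tested (x axis, percent) for each kind of clone library read from the gene name (y axis), with the counts beside the bars. The 36 genes named after ES cell libraries have the highest share, 91.7%, and the 617 named after adult testis libraries the lowest, 38.4%.

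Compared with WT, RIKEN genes were shifted upward in Id1KO. Of 1004 tested members, 480 (47.8%) were higher in Id1KO and 270 (26.9%) lower at an adjusted p under 0.05 (limma, Benjamini-Hochberg over all 22593 genes tested), where 42.5% of all genes tested were higher and 29.6% lower. By at least 2-fold, 159 members (15.8%) were higher and 66 (6.57%) lower, against 12.2% and 7.46% of all genes. The median log2 fold change was 0.25 over the members and 0.15 over all genes tested. Every slide held all groups, and within the 3 slides the members' median was 0.24, 0.28 and 0.21. That of all genes tested was 0.11, 0.18 and 0.15.

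After the Zrf1 knockdown, the RIKEN genes were shifted downward from Id1KO. Compared with Id1KO, 267 members (26.6%) were higher in Id1KO_Zrf1KD and 480 (47.8%) lower, against 32.3% and 39.8% of all genes tested. By at least 2-fold, 66 (6.57%) were higher and 176 (17.5%) lower, against 7.17% and 13.2%. The median was -0.24 over the members and -0.09 over all genes. Within the slides it was -0.23, -0.23 and -0.24 over the members and -0.1, -0.09 and -0.11 over all genes. Both comparisons use the same Id1KO arrays. Between Id1KO_Zrf1KD and WT, which share no arrays, 331 members (33.0%) were higher and 357 (35.6%) lower, against 32.4% and 32.2% of all genes, and both medians were -0.02.

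The share of calls that were higher depended on the scaling. In Id1KO against WT it was 64.0% for the members and 59.0% for all genes, but 56.8% and 50.4% after quantile normalization and 57.1% and 50.5% with the values the authors deposited. In Id1KO_Zrf1KD against Id1KO it was 35.7% and 44.8%, and 42.2% and 51.2% after quantile normalization. With normexp background correction the shares were 67.8% and 61.8%, and 30.4% and 40.9%. In both comparisons the members' share lay on the same side of that of all genes under these scalings. Quantile normalization moved the median of all genes in Id1KO against WT from 0.15 to 0.02 and that of the members from 0.25 to 0.11.

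The shift beyond the median of all genes was seen in members without a RefSeq mRNA record. The Description column of the scanner files gave 1055 members a RefSeq mRNA record, 154 a RefSeq non-coding RNA record, and 590 another record (a cDNA clone, a predicted RefSeq transcript or an Ensembl transcript). Of these, 736 (69.8%), 69 (44.8%) and 199 (33.7%) were tested. In Id1KO against WT, 327 of the mRNA members were higher and 232 lower, with a median of 0.14, where that of all genes tested was 0.15. Of the 69 non-coding members, 39 were higher and 11 lower, with a median of 0.61. Of the 199 with another record, 114 were higher and 27 lower, with a median of 0.53. Of all genes tested, 42.5% were higher and 29.6% lower. The difference between the classes is given as a description and was not tested.

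In Id1KO_Zrf1KD against Id1KO the medians of the classes were negative, and that of the members with another record was the lowest. Of all genes tested, 32.3% were higher and 39.8% lower. The mRNA members had 235 higher and 304 lower, with a median of -0.08, where that of all genes tested was -0.09. The non-coding members had 10 higher and 43 lower, with a median of -0.54, and those with another record 22 higher and 133 lower, with a median of -0.80. Against WT, Id1KO_Zrf1KD had 20 non-coding members higher and 21 lower, with a median of -0.06. For the members with another record it had 38 higher and 84 lower, with a median of -0.27.

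**Figure D2:**
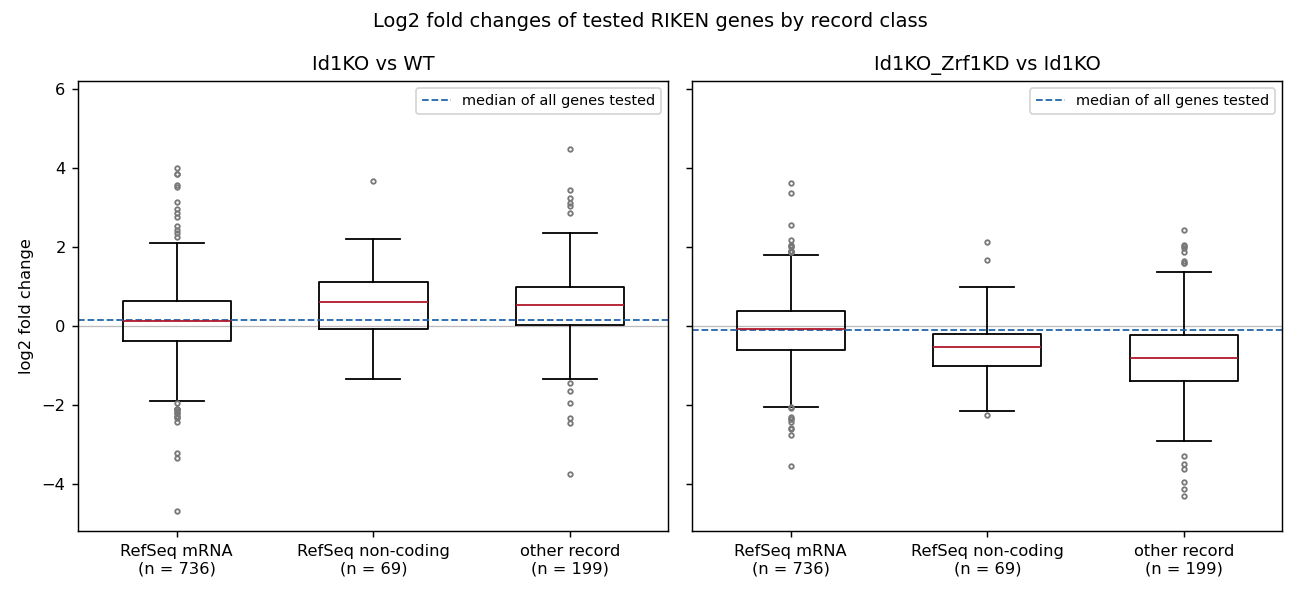
Log2 fold changes (y axis) of the 1004 tested RIKEN genes by kind of record (736 mRNA, 69 non-coding RNA, 199 other) in Id1KO against WT and in Id1KO_Zrf1KD against Id1KO. Boxes span the quartiles with the median in red, whiskers reach 1.5 times the box and dots lie beyond, and the dashed line is the median of all genes tested. The medians of the non-coding and other records lie above the dashed line on the left and below it on the right.

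The gene type in RefSeq's table regroups the same members and is no independent check. By it, 142 of 447 long non-coding RNAs were tested, with 84 higher and 19 lower in Id1KO and a median of 0.57. Of the 760 tested protein-coding members, 341 were higher and 230 lower, with a median of 0.15. After the knockdown, 12 long non-coding members were higher and 93 lower than in Id1KO, with a median of -0.69, against a median of -0.10 for protein-coding members. Of all genes tested, 42.5% were higher and 29.6% lower in Id1KO, and 32.3% and 39.8% after the knockdown. The medians of long non-coding members kept their sign under the other scalings and were smaller: 0.38 with normexp background correction, 0.41 after quantile normalization and 0.19 with the deposited values for Id1KO against WT, and -0.52, -0.48 and -0.22 for the knockdown.

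Signal strength went with the fold changes as well. When all tested genes were divided by mean level into 3 groups of equal size, a division chosen after the values were seen, 39.6% of the members fell into the dimmest. In Id1KO against WT the median of all genes was 0.34 in the dimmest, 0.02 in the middle and 0.11 in the brightest group, and that of the members 0.40, 0.11 and 0.21. Within the dimmest group the medians were 0.22 for 225 mRNA members and 0.52 for 37 non-coding members. In the brightest group they were 0.16 for 248 mRNA members and 0.70 for 18 non-coding members. For the knockdown the median of all genes was -0.38 in the dimmest, -0.01 in the middle and 0.02 in the brightest group. That of the members was -0.48, -0.13 and -0.08. In the same order, the mRNA medians were -0.16, -0.08 and -0.01 and the non-coding ones -0.67, -0.29 and -0.55. Members with another record had -0.86, -0.63 and -0.34, the last from 15 members. The median GC content was 41.7% in the mRNA and other records and 43.3% in the non-coding ones. In 3 groups of low, middle and high GC content (309, 280 and 415 members) the non-coding members had medians of 0.71, 0.74 and 0.51 in Id1KO against WT, and the mRNA members 0.18, 0.15 and 0.07. After the knockdown the non-coding medians were -0.89, -0.67 and -0.48, those of the other records -1.05, -0.67 and -0.68, and those of the mRNA members -0.08, -0.06 and -0.09.

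Host genes of snoRNAs were among the members higher in Id1KO. Zfas1 (1500012F01Rik), an antisense transcript of the gene Znfx1 that hosts C/D box snoRNAs, is non-coding in RefSeq's table, though the Description column gives it an mRNA record, under which it is counted above. It had levels of 4.54, 4.52, 4.51 and 4.49 in WT, 6.02, 6.13, 6.13 and 6.08 in Id1KO, and 3.61, 3.71, 3.60 and 3.66 in Id1KO_Zrf1KD. The 3 groups did not overlap, with Id1KO highest and the knockdown lowest. Zfas1 was 2.98-fold higher in Id1KO than in WT (log2 fold change 1.57 ± 0.04 SE, adjusted p = 1.1e-10) and 5.44-fold lower after the knockdown than in Id1KO (-2.44 ± 0.04, adjusted p = 9.5e-12). Snhg16 (1810032O08Rik), also a snoRNA host gene, had levels of 4.0 to 4.04 on WT arrays, 5.08 to 5.17 on Id1KO arrays and 4.41 to 4.57 after the knockdown. It was 2.17-fold higher in Id1KO (adjusted p = 2.0e-09) and 1.59-fold lower after the knockdown (adjusted p = 1.2e-07), and here the knockdown cells stayed above WT. Snhg17 (9430008C03Rik) had levels of -0.50 to -0.14, 0.87 to 1.11 and 0.79 to 1.04. It was 2.46-fold higher in Id1KO than in WT (adjusted p = 2.3e-07), while the difference after the knockdown, -0.03 ± 0.09 SE, did not pass the test (adjusted p = 0.82).

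Dancr (2700023E23Rik), a long non-coding RNA named for holding back the differentiation of progenitor cells, had levels of 1.40, 1.44, 1.51 and 1.43 in WT, 2.86, 2.98, 2.87 and 2.85 in Id1KO, and 2.0, 1.97, 2.06 and 2.04 in Id1KO_Zrf1KD. It was 2.73-fold higher in Id1KO (adjusted p = 2.9e-10) and 1.83-fold lower after the knockdown (adjusted p = 1.7e-08). 2410006H16Rik, which has no other symbol, was 4.76 ± 0.07 in WT cells, 5.92 ± 0.05 in Id1KO and 3.77 ± 0.07 after the knockdown. Its changes were 2.23-fold up (adjusted p = 4.2e-09) and then 4.44-fold down (adjusted p = 7.5e-11), an order of groups like that of Zfas1. Lockd (1190002F15Rik), a transcript just downstream of the cell cycle inhibitor gene Cdkn1b, rose 1.27-fold between WT (0.79 ± 0.07) and Id1KO (1.13 ± 0.09; adjusted p = 1.3e-04). In Id1KO_Zrf1KD its 4 values lay between -0.67 and -0.65, 3.46-fold below Id1KO (adjusted p = 3.6e-10) and 2.73-fold below WT (adjusted p = 1.2e-09). Platr5 (2410088K16Rik), one of the pluripotency-associated transcripts, was -1.72 ± 0.14 in WT cells, -0.15 ± 0.14 in Id1KO and -0.76 ± 0.22 after the knockdown. It rose 2.96-fold in Id1KO (adjusted p = 2.7e-07) and fell 1.53-fold after the knockdown (adjusted p = 5.6e-04).

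**Figure D3:**
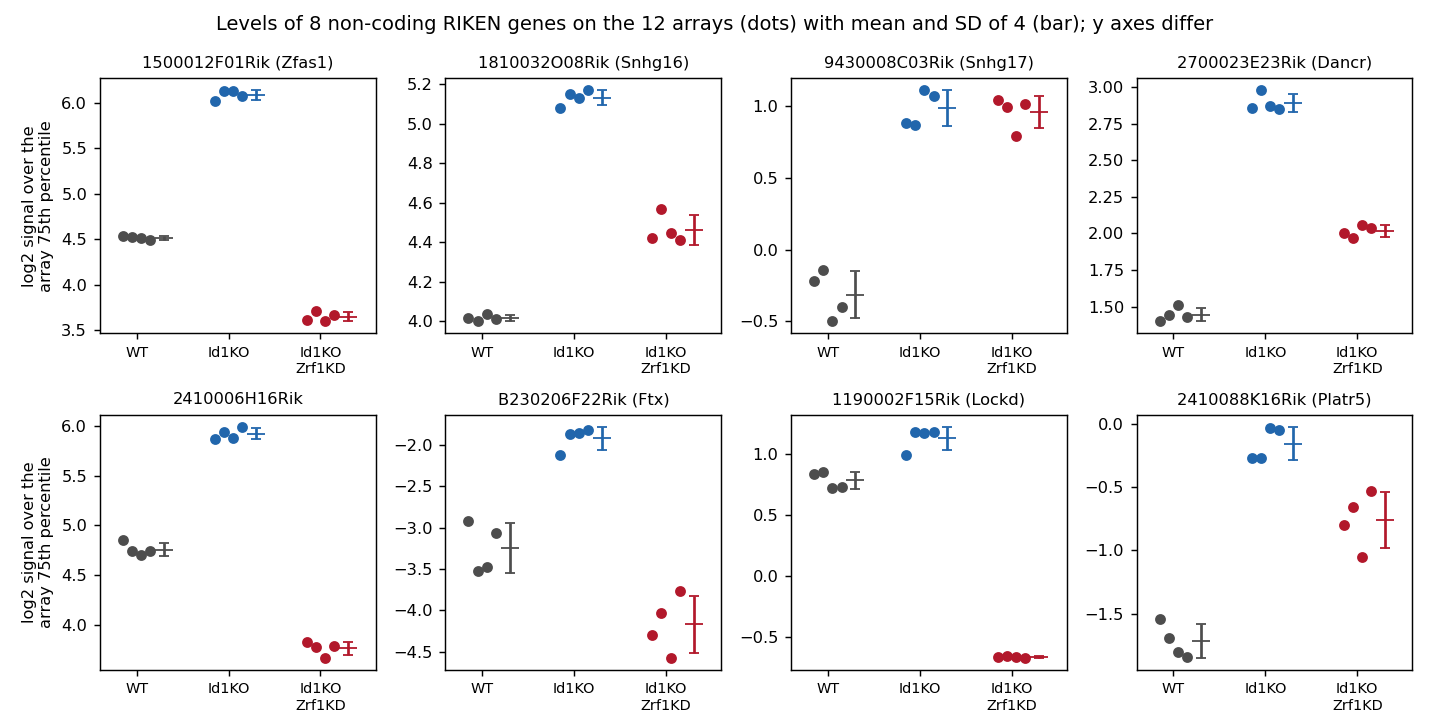
Levels (y axis, log2 signal over the 75th percentile of the array; the axes differ between panels) of 8 non-coding RIKEN genes on the 12 arrays, as dots by group, with mean and SD of 4. In 7 of the 8 panels all Id1KO values lie above all values of the other groups; in the panel of Snhg17 the Id1KO and knockdown values overlap.

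Other members with a non-coding or predicted record moved both ways. Higher in Id1KO were 1700063H04Rik, a predicted transcript at -1.91 ± 0.10 in WT and 0.17 ± 0.05 in Id1KO (4.26-fold, adjusted p = 1.2e-10), D330050I16Rik (3.04-fold, adjusted p = 3.5e-07) and 0610040B10Rik (3.16-fold, adjusted p = 1.7e-04). The last pair was dim, and with the scaling that moved it most the folds were 1.59 and 1.27. All 3 fell after the knockdown, by 2.53-fold, 2.55-fold and 2.19-fold (adjusted p = 4.2e-09, 1.6e-06 and 0.0026), of which the latter pair came to 1.46-fold and 1.18-fold at the least. The call for the fall of 0610040B10Rik was lost with quantile normalization (-0.74, adjusted p = 0.075). Lower in Id1KO were 1700018B24Rik, from 1.0 ± 0.09 to -0.25 ± 0.03 (2.38-fold, adjusted p = 5.9e-09), and 1500009C09Rik, from -0.72 ± 0.08 to -2.05 ± 0.13 (2.51-fold, adjusted p = 2.5e-08). 1700018B24Rik then rose 1.97-fold in the knockdown cells (adjusted p = 4.8e-08), and 1500009C09Rik differed from Id1KO by 0.19 ± 0.07 (adjusted p = 0.034), a call lost with slide as a block (adjusted p = 0.057), with normexp (0.06, adjusted p = 0.45) and in 4 of the fits that left out an array.

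A130040M12Rik was the non-coding record with the highest rise after the knockdown. Its levels were 0.64, 0.72, 0.30 and 0.46 in WT, 1.10, 1.06, 1.25 and 1.20 in Id1KO, and 3.47, 3.37, 3.06 and 3.24 in Id1KO_Zrf1KD. The knockdown cells were 4.38-fold above Id1KO (adjusted p = 1.7e-08) and 6.75-fold above WT (adjusted p = 2.2e-09). The cDNA clone 3930401B19Rik had a like order, with 0.32 ± 0.12, 0.92 ± 0.02 and 2.97 ± 0.14, and was 4.15-fold above Id1KO in the knockdown cells (adjusted p = 1.8e-09). Both genes have no later symbol.

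The largest rise of any member in Id1KO was that of 9430069I07Rik, a predicted transcript on chromosome 15. Its levels were -4.09, -4.31, -4.10 and -4.20 in WT, 0.23, 0.29, 0.31 and 0.37 in Id1KO, and -2.36, -2.64, -2.39 and -2.08 in Id1KO_Zrf1KD. The groups did not overlap, and the knockdown values lay between the other groups. It was 22.2-fold higher in Id1KO than in WT (log2 fold change 4.47 ± 0.10 SE, adjusted p = 3.5e-11) and 6.34-fold lower after the knockdown (adjusted p = 2.0e-09). Over the other scalings the smallest of these folds were 7.26 and 4.22. 2610528J11Rik, an mRNA record on chromosome 4, rose from -4.0 ± 0.40 to -0.16 ± 0.17, 14.3-fold (adjusted p = 7.3e-09), or 5.35-fold with the scaling that gave the least. In the knockdown cells it was -2.51 ± 0.17, 5.11-fold below Id1KO (adjusted p = 4.1e-07) and 3.31-fold at the least.

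The next 3 genes, named for the size of their changes, rose in Id1KO and did not fall back. A430089I19Rik (Pramel39), of the PRAME-like family that is expressed in germ cells and early embryos, had levels of 0.18, 0.14, 0.35 and 0.27 in WT, 3.64, 3.83, 3.77 and 3.82 in Id1KO, and 3.8, 3.87, 3.92 and 3.89 in Id1KO_Zrf1KD. It was 11.5-fold higher in Id1KO than in WT (adjusted p = 4.5e-12), and the knockdown cells differed from Id1KO by 0.11 ± 0.06 (adjusted p = 0.13). B020004J07Rik (Pramel17) had no WT array well above background (measured mean -6.27 ± 0.70) and was -2.42 ± 0.13 in Id1KO and -1.21 ± 0.14 in Id1KO_Zrf1KD. Against the lowest signal well above background on each WT array it was at least 6.65-fold higher in Id1KO (adjusted p = 2.2e-07), though 1.86-fold with the scaling that gave the least, and it rose a further 2.32-fold after the knockdown (adjusted p = 0.002). E330014E10Rik, whose array sequence is also listed for Gm3286, rose 8.80-fold in Id1KO, from -3.00 ± 0.10 to 0.14 ± 0.05 (adjusted p = 7.6e-12; 4.66-fold at the least), and to 1.57 ± 0.07 after the knockdown (2.69-fold, adjusted p = 3.5e-09). The 2-cell-like markers, with sums of 5.34 to 5.87, 117 to 127 and 188 to 197 in the groups, had the same order as these last 2 genes, and their part in it was not tested.

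Some genes of meiosis and sperm rose in Id1KO and fell after the knockdown. 4930447C04Rik (also known as Six6os1), a protein of the central element of the synaptonemal complex, had levels of -1.12, -0.99, -0.69 and -0.69 in WT, 1.56, 1.51, 1.54 and 1.62 in Id1KO, and -1.16, -1.37, -0.96 and -1.31 in Id1KO_Zrf1KD. It was 5.39-fold higher in Id1KO (adjusted p = 6.7e-09) and 6.76-fold lower after the knockdown (adjusted p = 3.3e-09), and the WT and knockdown values overlapped. 1700021C14Rik (Tsacc), a co-chaperone of a testis-specific kinase, was 0.13 ± 0.05, 2.39 ± 0.02 and 1.37 ± 0.04, 4.78-fold higher in Id1KO (adjusted p = 4.9e-12) and 2.03-fold lower after the knockdown (adjusted p = 2.4e-09). 1700022P22Rik (Spata45) was well above background on 1 WT array, with WT values of -4.23, -5.50, -5.92 and -7.24, and was -1.72 ± 0.08 in Id1KO and -4.07 ± 0.11 in Id1KO_Zrf1KD. Its 16-fold rise in Id1KO (adjusted p = 1.5e-05) shrank to 2.72-fold with the scaling that gave the least.

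**Figure D4:**
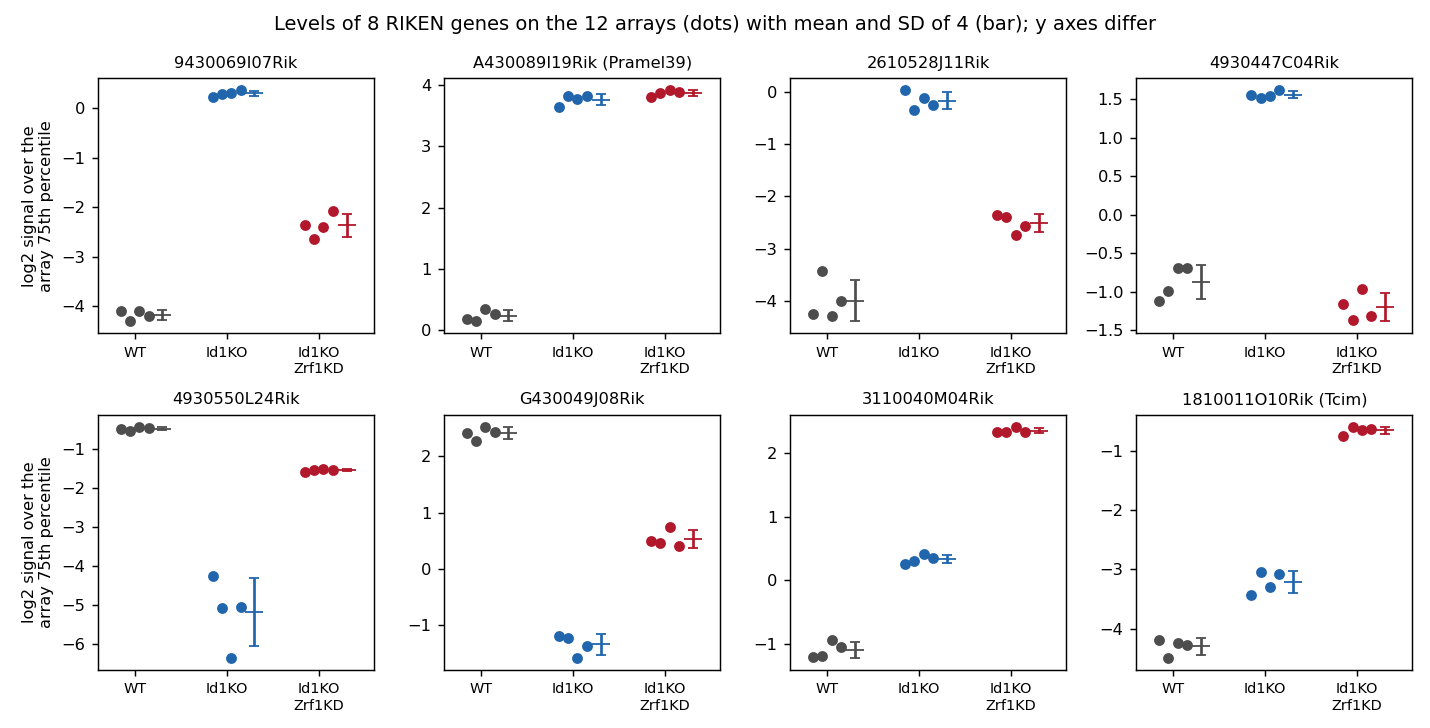
Levels (y axis, log2 signal over the 75th percentile of the array; the axes differ between panels) of 8 RIKEN genes on the 12 arrays, as dots by group, with mean and SD of 4. In the upper row Id1KO lies above WT in all 4 panels; in the lower row 4930550L24Rik and G430049J08Rik are lowest in Id1KO, and 3110040M04Rik and Tcim (1810011O10Rik) are highest after the knockdown.

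Over the 21 tested of 43 members since renamed for spermatogenesis, testis expression or cilia and flagella, 10 were higher in Id1KO and 3 lower (median 0.28), and after the knockdown 1 was higher and 6 lower (median -0.32). Of all genes tested, 42.5% were higher and 29.6% lower in Id1KO and 32.3% and 39.8% after the knockdown. The share of these genes higher in Id1KO is close to that background, and their share lower after the knockdown lies under it. Besides Spata45 (1700022P22Rik) the larger log2 fold changes were those of 4930415F15Rik (Spata48, 1.36, adjusted p = 0.0047), 1700029F09Rik (Tex30, 1.19, adjusted p = 2.2e-06) and 4930588N13Rik (Tex26, 1.18, adjusted p = 5.2e-07, a fold of 1.5 at the least). 1700007G11Rik (Cfap299), with no WT array well above background (-5.39 ± 0.55), was at least 2.52-fold higher in Id1KO (-3.73 ± 0.27, adjusted p = 4.4e-04). The cilia and flagella genes 1700003M02Rik (Cfap206), 4933411K20Rik (Cfap97) and 1810043G02Rik (Cfap410) were the 3 lower in Id1KO, with log2 fold changes of -0.63, -0.63 and -0.53. Over the 237 tested members named after testis libraries, 114 were higher and 58 lower in Id1KO (median 0.32), and 49 higher and 120 lower after the knockdown (median -0.42), where 47.8% of all members were higher in Id1KO and 47.8% lower after the knockdown. Of 8 testis germ cell markers 6 were measured, with sums of 5.31 to 5.75 on WT arrays, 8.65 to 9.29 on Id1KO arrays and 4.30 to 4.56 after the knockdown, while Tnp2 and Acrv1 were not kept. The sum was highest in Id1KO through Sycp3, at mean levels of 0.86 in WT and 2.58 in Id1KO, and Ddx4, at 0.52 and 0.97, whereas Ldhc (1.01 and -0.31), Prm1 (-3.73 and -4.79) and Tnp1 (-3.46 and -3.57) had lower means in Id1KO. Their part in these counts was not tested.

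The lowest members in Id1KO relative to WT included an X-linked gene and a retroviral one. 4930550L24Rik, an X-linked mRNA record, had levels of -0.50, -0.54, -0.44 and -0.48 in WT, -4.25, -5.08, -6.36 and -5.05 in Id1KO, and -1.59, -1.55, -1.53 and -1.56 in Id1KO_Zrf1KD. Only 1 Id1KO array was well above background. It was 25.9-fold lower in Id1KO (log2 fold change -4.69 ± 0.33, adjusted p = 2.1e-07), 4.59-fold at the least over the scalings, and 12.4-fold higher after the knockdown (adjusted p = 1.9e-06), 2.59-fold at the least. G430049J08Rik, a cDNA clone whose description names a retroviral type of protease and dUTPase, had levels of 2.40, 2.26, 2.52 and 2.43 in WT, -1.19, -1.22, -1.58 and -1.36 in Id1KO, and 0.50, 0.46, 0.75 and 0.40 in Id1KO_Zrf1KD. It was 13.3-fold lower in Id1KO (adjusted p = 1.4e-10) and rose 3.64-fold after the knockdown (adjusted p = 3.2e-08), to a level still 3.66-fold below WT.

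2410004A20Rik (Khdc3, also called Filia), a maternal-effect gene of oocytes that is also expressed in ES cells, was 4.31, 4.26, 4.32 and 4.23 in WT, 2.5, 2.35, 2.37 and 2.32 in Id1KO, and 3.59, 3.48, 3.47 and 3.55 in Id1KO_Zrf1KD. It was 3.72-fold lower in Id1KO (adjusted p = 1.1e-10) and 2.20-fold higher after the knockdown (adjusted p = 5.8e-09), with no overlap of the groups. Khdc3 was the lowest of the 33 tested members named after ES cell libraries, of which 17 were higher and 11 lower in Id1KO (median 0.26). Next came 2410076I21Rik (Rec114, a meiotic recombination protein), at -1.12 (adjusted p = 1.0e-09). The highest were C330018D20Rik, at 1.88 (adjusted p = 6.2e-10), and Platr5 (2410088K16Rik), at 1.57. After the knockdown 8 of the 33 were higher and 17 lower (median -0.19). Of all genes tested, 42.5% were higher and 29.6% lower in Id1KO, and 32.3% and 39.8% after the knockdown.

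Among the other members lower in Id1KO, 1700016M24Rik (Mroh4) went down in both steps: -0.46 ± 0.21 in WT cells, -2.77 ± 0.22 in Id1KO and -3.85 ± 0.33 after the knockdown. It was 4.97-fold lower in Id1KO (adjusted p = 2.9e-07; 2.77-fold at the least) and 2.11-fold lower again after the knockdown (adjusted p = 1.5e-04), which was 1.16-fold at the least over the scalings. The long non-coding 4921525O09Rik and B130046B21Rik stayed low: the former was 0.47 ± 0.10, -1.98 ± 0.20 and -1.95 ± 0.18, 5.47-fold lower in Id1KO (adjusted p = 6.0e-09), and the latter -1.73 ± 0.15, -4.05 ± 0.18 and -4.12 ± 0.56, 5.01-fold lower (adjusted p = 3.3e-06) and 1.98-fold at the least. 2310046K01Rik (Slc52a3), a riboflavin transporter, was 4.6-fold lower in Id1KO (adjusted p = 5.4e-05), with 1 Id1KO array well above background and a fold of 1.47 at the least. A330050F15Rik (Akain1), an inhibitor of protein kinase A anchoring, was -2.96 ± 0.03 in WT and not well above background on any array of Id1KO (-5.07 ± 0.31) or Id1KO_Zrf1KD (-6.84 ± 0.50). It was at least 3.44-fold lower in Id1KO (adjusted p = 6.0e-06), by the processed signal. 1700019M22Rik, not well above background on any Id1KO array (-5.01 ± 0.33), was at least 2.98-fold lower there than in WT (-3.27 ± 0.17, adjusted p = 1.5e-06), and these bounds fall to 1.44-fold and 1.31-fold with other scalings.

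Further bounds upward in Id1KO concerned genes near background in WT. 2010005H15Rik (Csta2), a stefin that inhibits cysteine proteases, was -6.18 ± 0.17 in WT, with no array well above background, -2.60 ± 0.07 in Id1KO and -3.55 ± 0.05 in Id1KO_Zrf1KD, at least 5.87-fold higher in Id1KO than in WT (adjusted p = 2.7e-11). 4930415O20Rik was at least 5.23-fold higher, from -5.2 ± 0.52 to -2.66 ± 0.35 (adjusted p = 5.7e-06). With the other scalings these 2 folds were 1.79 and 1.55 at the least. 2310047D07Rik had 1 Id1KO array apart from the rest, at 0.61 against -3.53 to -3.10, and WT values of -5.66 to -5.2, none well above background. Its bound of at least 7.07-fold and its log2 fold change of 3.12 (adjusted p = 0.0033) were enlarged by that array. Without it the log2 fold change was 2.14 and the call was kept (adjusted p = 1.9e-05). The table the authors deposited gave 1.25 (adjusted p = 0.054).

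After the Zrf1 knockdown, several members rose to levels above both WT and Id1KO. 3110040M04Rik, a predicted transcript on chromosome 1, had levels of -1.21, -1.20, -0.94 and -1.05 in WT, 0.26, 0.30, 0.41 and 0.35 in Id1KO, and 2.34, 2.34, 2.42 and 2.33 in Id1KO_Zrf1KD. It rose in each step, 2.69-fold (adjusted p = 5.7e-09) and 4.08-fold (adjusted p = 6.1e-10). 1810011O10Rik (Tcim, a regulator of transcription and immune signalling) had -4.31 ± 0.14, -3.21 ± 0.18 and -0.65 ± 0.06 and rose 5.89-fold after the knockdown (adjusted p = 1.6e-09; 2.94-fold at the least). A430060F13Rik, at -2.55 ± 0.13, -0.61 ± 0.08 and 0.98 ± 0.07, was 11.6-fold above WT in the knockdown cells (adjusted p = 1.1e-11; 7.20-fold at the least). C030039L03Rik (Zfp607b), a zinc finger gene, was 0.69 ± 0.10, -0.45 ± 0.07 and 1.61 ± 0.07, 2.20-fold lower in Id1KO (adjusted p = 2.1e-08) and then 4.17-fold higher (adjusted p = 3.4e-10).

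5730590G19Rik (Ticrr, or Treslin), which is needed to start DNA replication, did not pass the test between WT (3.46 ± 0.12) and Id1KO (3.45 ± 0.08; adjusted p = 0.90) and was 5.34 ± 0.06 after the knockdown, 3.72-fold higher than in Id1KO (adjusted p = 1.2e-09). D230037D09Rik (Tmem251) was 0.05 ± 0.10, 0.09 ± 0.05 and 1.45 ± 0.04, 2.58-fold higher after the knockdown (adjusted p = 2.6e-09). 3110001I22Rik (Bfar), an apoptosis regulator, rose in each step, from -0.81 ± 0.07 to -0.09 ± 0.06 and 0.77 ± 0.06 (1.64-fold and 1.82-fold, adjusted p = 2.3e-07 and 5.9e-08). 2310079F23Rik (Trmt44), a tRNA methyltransferase, was lower in Id1KO (1.58-fold, adjusted p = 7.0e-08) and 2.26-fold higher after the knockdown (adjusted p = 1.1e-09).

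A set of members was well above background on all 4 knockdown arrays and on few or no Id1KO arrays. They were kept through the knockdown group, so their folds, bounds or ratios to dim Id1KO values, and p-values are given as a description. 9930013L23Rik (Cemip), a protein of hyaluronan breakdown, was -5.58 ± 0.74 in Id1KO, with no array well above background, and -2.21 ± 0.18 in Id1KO_Zrf1KD, at least 6.24-fold higher (adjusted p = 2.5e-06). 6530418L21Rik (Inka2) and 6430704M03Rik (Frrs1l, an accessory protein of AMPA receptors) were at least 3.37-fold and 3.18-fold higher (adjusted p = 5.7e-08 and 4.2e-07), and C430002N11Rik at least 3.52-fold (adjusted p = 2.4e-05). Their Id1KO means were -4.64 ± 0.15, -4.53 ± 0.12 and -4.74 ± 0.44, and their knockdown means -2.79 ± 0.19, -2.82 ± 0.15 and -2.77 ± 0.27. 5430435G22Rik (Rab7b), a small GTPase of late endosomes, was 4.02-fold higher (adjusted p = 9.8e-07) and 1810009N02Rik 4.08-fold (adjusted p = 1.2e-04). With the scalings that gave the least, the folds of these 6 were 1.88, 1.42, 1.36, 1.30, 1.60 and 1.47. The fibroblast and parietal endoderm marker sums were also highest in the knockdown cells, and their part was not tested.

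Where no knockdown array was well above background, the largest falls after the knockdown, ranked by bound, were in members with a clone or predicted record. 5830408C22Rik, a long non-coding RNA measured at chr8:26219916-26219975 on the plus strand, had levels of -2.09, -2.07, -2.41 and -2.06 in WT, -1.15, -1.26, -1.17 and -1.29 in Id1KO, and -5.41, -5.68, -5.33 and -5.66 in Id1KO_Zrf1KD, where no array was well above background. It was at least 13.6-fold lower after the knockdown (adjusted p = 6.6e-11), and 3.13-fold with the scaling that gave the least. 5730416O20Rik was at least 8.71-fold lower (-1.86 ± 0.12 to -5.99 ± 0.39, adjusted p = 3.0e-09), 9330159N05Rik at least 5.74-fold (-2.46 ± 0.23 to -5.95 ± 0.73, adjusted p = 1.0e-06) and 4930431P19Rik at least 5.55-fold (-2.51 ± 0.18 to -6.45 ± 0.86, adjusted p = 1.1e-06). The least folds of these 3 were 2.52, 1.80 and 1.86. In all 4 the knockdown values lay below those of WT as well.

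E030047D23Rik fell 9.74-fold, from -1.11 ± 0.12 in Id1KO to -4.39 ± 0.26 (adjusted p = 3.7e-07). 1700024J04Rik and B230307C23Rik fell 7.50-fold and 7.38-fold (adjusted p = 2.0e-06 and 4.7e-06) and 2310057B04Rik 7.25-fold, from -1.22 ± 0.14 to -4.08 ± 0.20 (adjusted p = 2.2e-09). B230303O12Rik, E030010N08Rik (Crocc2) and 1700001J03Rik fell 6.78-fold, 6.43-fold and 6.02-fold (adjusted p = 1.4e-08, 1.6e-07 and 2.4e-06). The array sequence of 1700123K08Rik is also listed for 1700001J03Rik. All 7 were dim after the knockdown, and with the other scalings their folds were 2.97, 1.77, 2.08, 2.55, 1.97, 1.95 and 1.98 at the least.

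At higher signal, 4833442J19Rik (Etfbkmt), a methyltransferase of the mitochondrial electron transfer flavoprotein, was 0.19 ± 0.07 in WT cells, 1.85 ± 0.07 in Id1KO and -0.20 ± 0.06 after the knockdown. It rose 3.16-fold in Id1KO (adjusted p = 4.7e-10) and fell 4.16-fold after the knockdown (adjusted p = 1.5e-10). 2810417H13Rik (Pclaf), a factor bound to the replication clamp PCNA, was 4.98 ± 0.04, 6.03 ± 0.04 and 4.42 ± 0.04. It rose 2.07-fold (adjusted p = 1.6e-09) and fell 3.05-fold (adjusted p = 1.1e-10), in contrast with the replication gene Ticrr (5730590G19Rik), which was highest after the knockdown.

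Members since renamed for mitochondrial import, respiratory chain assembly or cristae came to 15, all tested. Of these, 10 were higher and 2 lower in Id1KO (median 0.44), and 3 higher and 11 lower after the knockdown (median -0.42). Among the 15 are 2810002N01Rik (Coa8) and 4930455C21Rik (Timmdc1), whose array sequences are also listed for other genes. The shares of all genes were 42.5% and 29.6%, and 32.3% and 39.8%, the difference was not tested, and the other scalings gave 10 and 2, and 2 to 3 and 10 to 11. 1700034H14Rik (Timm21), a subunit of the inner membrane import machinery, was -0.98 ± 0.08 in WT cells, 1.12 ± 0.08 in Id1KO and 0.09 ± 0.03 after the knockdown, 4.30-fold higher and then 2.04-fold lower (adjusted p = 7.9e-11 and 1.9e-08). 2010107E04Rik (Atp5mpl), a small subunit of ATP synthase, was 4.86 ± 0.11, 6.49 ± 0.11 and 5.86 ± 0.03, 3.09-fold higher and then 1.54-fold lower (adjusted p = 2.3e-09 and 5.7e-06). 2410015M20Rik (Micos13), of the complex that shapes cristae junctions, rose 2.11-fold and 2310030N02Rik (Ndufaf6), an assembly factor of complex I, 1.77-fold (adjusted p = 2.5e-08 and 9.1e-08), and they fell 1.80-fold and 2.02-fold (adjusted p = 2.0e-07 and 2.0e-08). The 2 lower in Id1KO were 6330578E17Rik (Coa5) and 1810026J23Rik (Timm29), by -0.46 and -0.50 (adjusted p = 1.4e-04 and 2.8e-04), and they and 2010305A19Rik (Coa7) were the 3 higher after the knockdown.

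Of 8 zinc finger genes, all tested, 4 were higher and 3 lower in Id1KO (median 0.36), and 1 was higher and 6 lower after the knockdown (median -0.51), counts that became 1 and 3, and 1 and 4, after quantile normalization. Of all genes, 42.5% and 29.6%, and 32.3% and 39.8%, were called so. Zfp607b (C030039L03Rik) was the 1 that rose. 1700049G17Rik (Zfp974) went down in both steps, from -1.36 ± 0.14 to -1.73 ± 0.14 and -3.13 ± 0.11 (adjusted p = 0.0029 and 1.3e-07; the second fold of 2.62 was 1.64 at the least), and A530054K11Rik (Zfp729a) from 0.81 ± 0.06 to 0.55 ± 0.04 and -0.02 ± 0.07 (adjusted p = 5.8e-04 and 1.5e-06). 2610305D13Rik (Zfp979) was 5.03 ± 0.13, 5.46 ± 0.03 and 4.93 ± 0.05 (adjusted p = 6.2e-05 and 1.1e-05).

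Families named by sequence or broad class were called in both directions, where the background in Id1KO was 42.5% higher and 29.6% lower. Of 20 tested Tmem genes (transmembrane), 8 were higher and 6 lower in Id1KO (median 0.03), with 1810027O10Rik (Tmem256) at 1.77-fold higher (adjusted p = 4.3e-08) and 6330416G13Rik (Tmem268) at 1.84-fold lower (adjusted p = 2.5e-07). Of 15 Ccdc genes (coiled coil), 7 were higher and 4 lower (median 0.43), with 4930473A06Rik (Ccdc171) 2.72-fold higher (adjusted p = 3.9e-07; 1.44-fold at the least) and 2410075B13Rik (Ccdc166) 1.67-fold higher and then 2.24-fold lower (adjusted p = 4.3e-08 and 1.7e-09). Of 18 Fam genes, 3 were higher and 7 lower (median -0.16): B230312A22Rik (Fam214b) was 1.99-fold lower and 5730508B09Rik (Fam241a) 1.96-fold lower (adjusted p = 9.9e-07 and 4.0e-06), while 1700025K23Rik (Fam229b) was 1.68-fold higher (adjusted p = 1.2e-06). After the knockdown the 8 Fam genes that were higher included 1810008A18Rik (Fam207a), at 1.79-fold (adjusted p = 2.9e-07). Of 5 solute carriers, 1 was higher and 3 lower in Id1KO: 9330176C04Rik (Slc22a13b) was 2.44-fold higher (adjusted p = 1.5e-06), and Slc52a3 (2310046K01Rik), 1110021L09Rik (Slc18b1, 1.52-fold) and 4930471M23Rik (Slc35f6, 1.16-fold) were lower (adjusted p = 5.4e-05, 1.6e-05 and 0.0042).

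On the X chromosome more of the members were lower than higher in Id1KO. Of 86 X-linked members 37 were tested, of which 13 were higher and 19 lower in Id1KO, 7 and 12 of them by at least 2-fold, against 42.5% and 29.6% of all genes, and 12.2% and 7.46% by at least 2-fold. The median was -0.47, and -0.13, -0.52 and -0.36 with normexp, quantile normalization and the deposited values. Among the chromosomes with over 20 tested members this was the lowest median, and chromosome 8 had the next, at 0.02; the difference was not tested. After the knockdown 14 X-linked members were higher and 11 lower, and the median of 0.11 turned to -0.08 with normexp, so no direction is given for it. The 2 members placed on unlocalised Y sequence were not tested.

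Besides 4930550L24Rik, the X-linked members lower in Id1KO were led by 1700080O16Rik and 4930408F14Rik (Spin2d). 1700080O16Rik was -1.81 ± 0.19 in WT and not well above background on any Id1KO array (-5.16 ± 0.69), at least 6.70-fold lower (adjusted p = 3.2e-06) and 2.19-fold at the least over the scalings. Spin2d, a spindlin family gene whose array sequence is listed for Spin2-ps1, was -0.60 ± 0.06 in WT and -3.8 ± 0.41 in Id1KO, 9.23-fold lower (adjusted p = 2.5e-08) and 3.76-fold at the least. 1700013H16Rik was measured well above background in all groups, with levels of 2.64, 2.45, 2.68 and 2.70 in WT, 0.42, 0.65, 0.37 and 0.45 in Id1KO, and 1.11, 1.22, 1.40 and 1.21 in Id1KO_Zrf1KD. It was 4.42-fold lower in Id1KO (adjusted p = 1.9e-09) and rose 1.70-fold after the knockdown (adjusted p = 8.2e-06). 1700019B21Rik (Tslrn1) was 1.19 ± 0.06, -0.76 ± 0.07 and 0.88 ± 0.07, 3.88-fold lower and then 3.12-fold higher (adjusted p = 1.4e-10 and 7.3e-10). 1810030O07Rik was 2.29-fold lower in Id1KO (adjusted p = 1.1e-09) and differed by 1.08-fold after the knockdown (adjusted p = 0.035), a call lost with slide as a block (adjusted p = 0.054) and under all 3 other scalings (adjusted p = 0.075 to 0.099). 1700012L04Rik (H2al1m), a histone H2A variant whose sequence is shared with H2al1a, H2al1e and H2al1k, was at least 3.37-fold lower in Id1KO, from -3.02 ± 0.30 to -5.10 ± 0.22 (adjusted p = 3.8e-06), 1.36-fold at the least.

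The X-linked members higher in Id1KO included non-coding genes. Ftx (B230206F22Rik), a non-coding gene of the X-inactivation centre close to Xist, had levels of -2.92, -3.53, -3.47 and -3.07 in WT, -2.12, -1.87, -1.85 and -1.82 in Id1KO, and -4.30, -4.03, -4.58 and -3.77 in Id1KO_Zrf1KD. The groups did not overlap. It was 2.52-fold higher in Id1KO (adjusted p = 5.0e-05) and 4.77-fold lower after the knockdown (adjusted p = 7.1e-07), or 1.60-fold and 1.97-fold with the scaling that gave the least. Firre (6720401G13Rik), a nuclear long non-coding RNA of the X chromosome that was singled out after its values were seen, was -1.32 ± 0.10 in WT cells, -0.18 ± 0.09 in Id1KO and -2.01 ± 0.11 after the knockdown. It was 2.20-fold higher in Id1KO (adjusted p = 8.6e-08) and 3.54-fold lower after the knockdown (adjusted p = 2.8e-09) by its brightest sequence. Between the knockdown and WT its kept sequences were called in opposite directions, -0.69 (adjusted p = 7.6e-06) for the brightest and 0.23 (adjusted p = 0.046) for the other. 1700045I19Rik, at -4.90 ± 0.58 in WT with 1 array well above background, was 3.65-fold higher in Id1KO (adjusted p = 4.2e-05), 1.35-fold at the least, and 2010204K13Rik, at 0.08 ± 0.05 and 1.31 ± 0.05, was 2.35-fold higher (adjusted p = 2.6e-09).

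**Figure D5:**
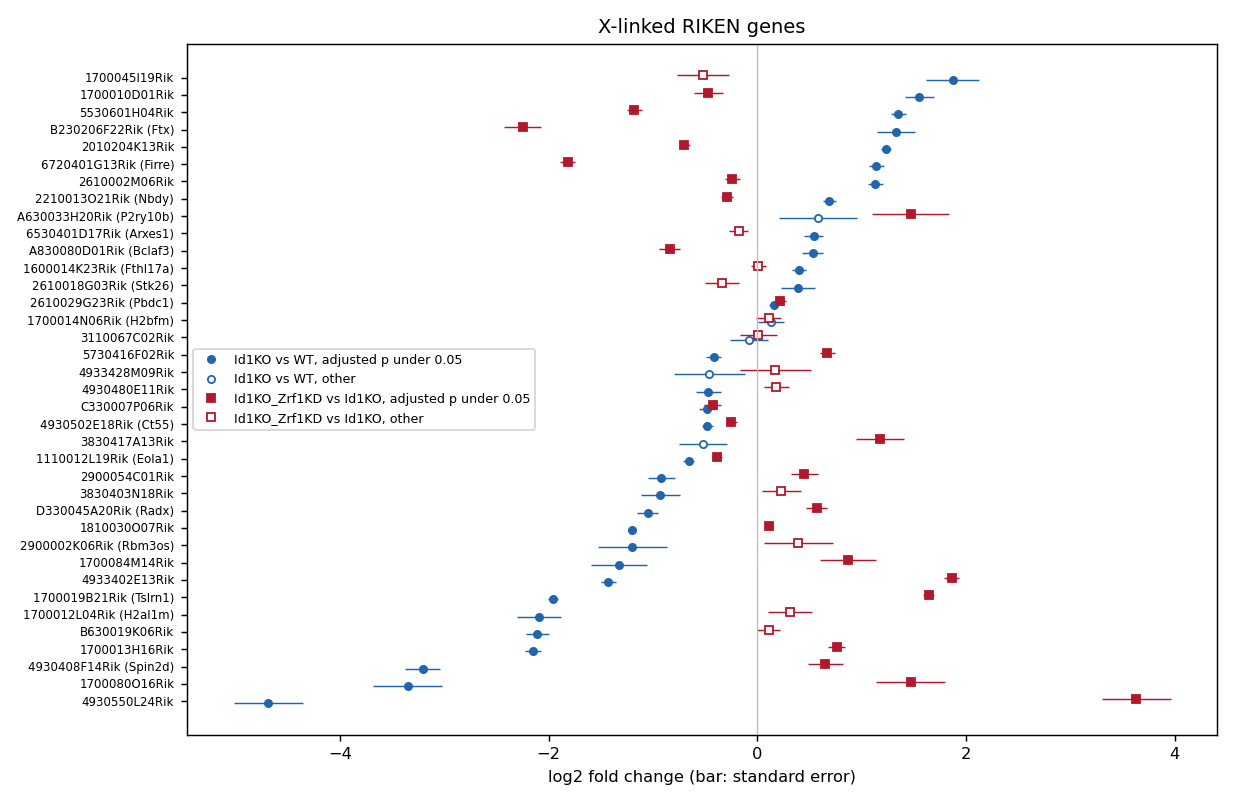
Log2 fold changes with standard errors (x axis) of the 37 tested X-linked RIKEN genes (y axis) in Id1KO against WT (circles) and in Id1KO_Zrf1KD against Id1KO (squares), filled where the adjusted p is under 0.05. In Id1KO against WT, 19 filled circles lie left of 0 and 13 right of it; both comparisons use the same Id1KO arrays.

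The fold changes of members of very high signal depended on the scaling. Of those with the highest mean level, 7 are described here, namely 2610028H24Rik, 2810002N01Rik (Coa8), A730011L01Rik (Endov), 1600029O15Rik, 1700073E17Rik, 2900010J23Rik (Swi5) and 3000002C10Rik. In Id1KO 6 of them were higher, by log2 fold changes of 0.69 (1700073E17Rik) to 1.08 (1600029O15Rik), and 3000002C10Rik differed by -0.24 (adjusted p = 0.068). With the scaling that gave the least, these 6 folds were 1.18 (Coa8) to 1.5 (1600029O15Rik). The array sequence of Endov is also listed for Mpv17 and that of Coa8 for Morrbid, so the signal of either cannot be given to 1 gene. Another current gene was listed for the array sequence of 19 of the 1004 tested members, among 781 with an accession in RefSeq's table.

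Different array sequences of a gene did not always give the same direction. Of 220 tested members with more than 1 kept sequence, 9 had sequences that passed the test in opposite directions in Id1KO against WT, 12 in Id1KO_Zrf1KD against Id1KO and 16 in Id1KO_Zrf1KD against WT. The widest gap was in 4930579G22Rik (Nupr1l), where after the knockdown one sequence was higher by 0.29 (adjusted p = 0.027) and another, from a separate clone, lower by -3.8 (adjusted p = 2.6e-09). 6430531B16Rik (Spef1l) gave 0.15 (adjusted p = 0.017) and -2.81 (adjusted p = 8.5e-08). D630037F22Rik (Tbc1d32) gave 0.95 and -1.12 in Id1KO against WT (adjusted p = 0.0063 and 0.011), while its brightest sequence gave -0.03 (adjusted p = 0.71). The X-linked 2610002M06Rik gave 1.13 and -0.30 (adjusted p = 1.5e-07 and 0.02), 5930434B04Rik (Cacfd1) 0.51 and -0.83 (adjusted p = 0.009 and 1.1e-05), and 2810046L04Rik (Proser1) 0.66 and -0.63 after the knockdown (adjusted p = 0.046 and 0.0056). The call of 0.66 was lost with slide as a block (adjusted p = 0.09) and in 8 of the fits that left out an array, and its Id1KO 1 value lay apart from the other Id1KO arrays. For these genes the direction depends on which transcript sequence is read.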

How the data were processed

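The scanner files come from Agilent Feature Extraction 10.7.3.1 with probe positions in build mm9, per the file headers, and hold for each spot intensity values (a mean signal, a local background and a background-subtracted processed signal) and flag values of 0 or 1 (other). The authors' deposited table holds log2 values by spot number, with a median of 6.64 in every column; its own background correction and normalization are not given in the sources used here, and its columns correlated with the normexp values of their own array at r of at least 0.999.

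From the intensity values, log2 of the processed signal minus the array's 75th percentile was taken, leaving out outlier spots (108 to 302 per array), and spots of the same probe were averaged. A probe was kept if well above background on at least 50% of its spots on all 4 arrays of a group (30885 of 55681), and the brightest kept probe stood for each gene name (22593 names). Groups were compared in 1 limma fit (limma 3.58.1, R 4.3.3, data.table version 1.17.8) with its two-sided moderated statistic, and p-values were adjusted by Benjamini-Hochberg per comparison, at 0.05. Script steps were tested on simulated data. For groups in which no array was well above background, folds are bounds against the lowest signal well above background on each array (-5.32 to -4.51). Symbols and gene types are from RefSeq's gene table; clone libraries were read from the name's code where at least 5 Descriptions with that code named one. Zinc finger genes were taken as Zfp and Zscan symbols, and Rexo5 and Rex1bd, which match the letters of Rex, were left out after they were seen.

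Members named are the 8 highest and 8 lowest and the 4 largest bounds each way per comparison, the 3 highest and lowest per record class, the 8 brightest, the 8 of smallest adjusted p with a symbol, up to 3 per family, 4 on the X chromosome and up to 6 whose probes disagree, 119 in all; 1 of the 8 brightest is not reported here, and others named were chosen after their values were seen. The members, lists, signal and GC groups, printed sequences and figure panels were chosen with earlier results of these data known. Alternatives were normexp background, quantile normalization, the deposited values, other filters on dim probes, the mean over probes, slide and replicate blocks, and leaving out each array. Arrays of the same replicate number had deviations with a median correlation of -0.20 (same slide 0.24), so the numbers do not pair samples. With 4 arrays per group, that number limits precision. Array outliers were looked for in all 119 named members, and alternatives run on them all, after values had been seen for some.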

Additional observations from a re-analysis of the deposited data

Results flagged for a closer look

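Each of the 119 named members was examined in the 3 groups for an array whose gap to the nearest of the other 3 exceeded, as a share of the group's range, Dixon's 95% critical value. Of 357 groups, 24 were picked out, and chance alone picks out about 1 in 20. Values are levels in log2 units, and no cause was examined.

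The widest gap was that of 2310047D07Rik, at 0.61 in Id1KO 1 against -3.53 to -3.10 on the other Id1KO arrays, which moves its fold change as given above. On the same array 2810046L04Rik (Proser1) was at -2.49 against -1.23 to -1.01, B230206F22Rik (Ftx) at -2.12 against -1.87 to -1.82, and 1190002F15Rik (Lockd) at 0.99 against 1.17 to 1.18. In Id1KO 2, E030010N08Rik (Crocc2) was at -1.36 against -2.09 to -2.06, A430060F13Rik at -0.73 against -0.58 to -0.56, and 1700019B21Rik (Tslrn1) at -0.66 with the others at -0.80. In Id1KO 3, the X-linked 1700080O16Rik was at -4.13 against -5.56 to -5.44 and 1700045I19Rik at -2.58 against -3.25 to -3.14.

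In WT 1, 1500009C09Rik was at -0.60 against -0.77 to -0.76 and 6430704M03Rik (Frrs1l) at -4.45 against -3.96 to -3.87. WT 2 held D230037D09Rik (Tmem251) at 0.19 against -0.01 to 0.01. WT 3 held E030047D23Rik at -0.43 against -1.61 to -1.58, 5830408C22Rik at -2.41 against -2.09 to -2.06 and 4930465K10Rik at -4.97 against -4.41 to -4.38. WT 4 held C430002N11Rik at -5.35 against -4.59 to -4.51.

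In Id1KO_Zrf1KD 2, 2310046K01Rik (Slc52a3) was at -3.47 against -3.02 to -3.00 and 1600029O15Rik at 7.34 against 7.41 to 7.42. In Id1KO_Zrf1KD 3, 3000002C10Rik was at 6.87 against 7.18 to 7.23, 3110040M04Rik at 2.42 against 2.33 to 2.34, 2610305D13Rik (Zfp979) at 5.0 against 4.90 to 4.91, and C130022K22Rik (Ccdc174) at 2.20 against 2.13 to 2.14. In Id1KO_Zrf1KD 4, B130046B21Rik was at -4.95 against -3.93 to -3.79 and 2610028H24Rik at 9.11 against 9.18 to 9.20.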

How the results depend on the processing

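The members' medians in Id1KO against WT and in the knockdown against Id1KO kept their sign under the alternatives run. Of 260 counts and medians under an alternative, 237 stayed within 1.5 times the count or within the spread between arrays. The counts of at least 2-fold depended most on the scaling. Higher in Id1KO than in WT by at least 2-fold were 68 members with normexp background correction, 55 with the deposited values and 104 when a sequence had to be well above background on all arrays, and lower 29, 37 and 42. After the knockdown the same 3 settings gave 22, 28 and 34 members higher and 67, 63 and 107 lower than in Id1KO, and without a filter on dim probes 747 members were lower at any size. The members' median in Id1KO against WT was 0.11 after quantile normalization, 0.08 with the deposited values, 0.37 without the filter and 0.23 to 0.27 when arrays were left out in turn. For the knockdown against Id1KO it was -0.11, -0.08, -0.46 and -0.24 to -0.21, and -0.21 with sequences well above background on all arrays; against WT it was -0.06 without the filter. With slide as a block, 499 members were higher and 285 lower in Id1KO than in WT, and 265 higher and 495 lower after the knockdown. The replicate numbers do not pair the samples. With them as a block, 469 members were higher and 262 lower in Id1KO than in WT, and 259 higher and 471 lower after the knockdown. Of 314 called results of named members, over all alternatives, 6054 values kept the call, 136 lost it and 6 turned sign. The mean over probes turned 2610028H24Rik (-0.22) and 4930579G22Rik (-0.71) in the knockdown against WT and 5930434B04Rik (-0.04) and 6430531B16Rik (-1.33) in the knockdown against Id1KO, since it includes the sequences that disagree. Normexp turned 6430704M03Rik (0.02) and 9930013L23Rik (0.05) in Id1KO against WT, where no Id1KO array was well above background; the cause was not tested. Signal over background limits what can be said of the dim members.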
